A study of Mus musculus with 8 samples.

Results

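The genes described here encode 10 secreted factors known from the hypoxia response and from blood vessels: Vegfa, Pgf, Pdgfb, Angptl4, Edn1, Adm, Apln, Stc1, Stc2 and Nmu. They were chosen by name, and all 17 probe sets that the platform annotation assigned to one of them alone were taken, out of 45101 probe sets and 18193 genes on the array. The cells were mouse embryonic fibroblasts (MEFs), connective tissue cells cultured from embryos and here immortalized with large T antigen, and their RNA was hybridized to Affymetrix Mouse Genome arrays. The groups were VHL/FIH null (called double null here), VHL null, FIH null and wild type, with 2 arrays each, and all 8 cultures were kept at 21% oxygen. The null cells were derived from lines with floxed alleles by an adenovirus carrying Cre recombinase, each null group from a floxed line of its own, so that genotype and line of origin cannot be told apart. Whether wild type cells received virus is not given in the sources used here. The labels name the arrays of a group biological replicates without saying whether these were separate embryos or cultures, and p-values measure only the spread between them.

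Cells answer low oxygen through the hypoxia-inducible factors (HIF), whose alpha subunits are hydroxylated while oxygen is present. VHL, part of a ubiquitin ligase, recognizes alpha subunits hydroxylated on prolines and marks them for destruction, and FIH, encoded by Hif1an, hydroxylates an asparagine that then hinders binding of the p300 and CBP coactivators. HIF binds DNA at the core motif ACGTG or GCGTG, and many of its best known targets encode proteins that leave the cell and act on vessels, among them the growth factor VEGF-A and the vasodilator peptide adrenomedullin. The study compared the deletions of FIH, of VHL and of both genes.

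The files give MAS5 signals, linear intensities that the authors scaled to one trimmed mean per array (2500.01 on every array), and differences are of group means of log2(signal + 16). Testing required a signal over the cutoff of 291.1, the median of all non-control signals, on 2 arrays or more, which held for 14 of the 17 probe sets and left at least 1 for each of the 10 genes. A gene is described by its brightest tested probe set. In a group whose mean signal was at or below 291.1 the level carries little information, and a fold against it is given as at least the other group's mean divided by 291.1. Across probe sets, log2 signals correlated with r between 0.968 and 0.971 within groups and between 0.954 and 0.969 between groups. Vhl signal averaged 979 ± 116 in double null, 731 ± 33.2 in VHL null, 3480 ± 76.5 in FIH null and 3294 ± 36.0 in wild type cells (SD, n = 2 each). Hif1an averaged 1286 ± 166, 2033 ± 169.9, 1691 ± 21.7 and 2867 ± 206 in the same order of groups, so that it was lower in VHL null cells too, although their deletion was of VHL. The deleted exons are not given in the sources used here, so it is not known whether these probe sets lie within them, and their levels do not check the deletions. That call for Hif1an (limma adjusted p = 0.00886) did not hold when probe sets of the gene were averaged (adjusted p = 0.576), nor without VHL null replicate 1 (0.0687) or wild type replicate 2 (0.0633).

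Of the fibroblast markers 6 of 10 exceeded the cutoff on all 8 arrays, among them Col1a1, Col1a2 and Vim, and Lum never did. In double null cells 3 of the 9 tested were lower than in wild type, Dcn (130 ± 117 against 610 ± 31.5), Pdgfra (175 ± 20.8 against 1010 ± 330) and Postn (2128 ± 299 against 4884 ± 136, SD, n = 2 each), the first and second of them below the cutoff, and Col3a1 was higher. Over all tested genes 22.3% were lower and 16.7% higher there. Of the 9, 2 rose and 2 fell in VHL null cells, and 3 rose and 1 fell in FIH null cells. The shares of all tested genes were 14.4% and 27.0% in the first, and 1.39% and 3.89% in the second. Postn averaged 795 ± 26.4 in VHL null and 12490 ± 275 in FIH null cells, and Dcn averaged 1056 ± 102 and 113 ± 49.4 (SD, n = 2 each). Endothelial cells are a main source of several of these factors in tissue, and 10 of 13 endothelial markers, Pecam1, Cdh5, Tie1 and Vwf included, stayed at or below the cutoff on every array, although none was listed at 0. Egfl7 alone exceeded it on all 8 arrays, at 927 to 1239, and gave a large part of the summed signal. The summed signal of the 13 ran from 2327 to 2502 in double null, from 1826 to 2130 in VHL null, from 2068 to 2356 in FIH null and from 2156 to 2398 in wild type cells. Fewer cells of a type and less RNA per cell cannot be told apart in these bulk samples.

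The 300 bases around each start site, 250 before and 50 after, were available for 7 of the 10 genes from RefSeq (build GRCm38.p6) and were searched on both strands for ACGTG and GCGTG, overlapping matches counted as 1 site. Of the 9 windows of these 7 genes, 6 held at least 1 site, against 43.8% of 32851 windows of all genes. The 250 bases before the start are shown 5′ to 3′ along the gene for Adm and Apln, whose signals were highest in double null cells, for Stc2, which was high in both groups without VHL, and for Nmu, which was high in VHL null cells alone. Capitals mark the matches to either motif in either orientation. They lie at chr7:110627407-110627656 on the plus strand, chrX:48034854-48035103 on the minus strand, chr11:31370062-31370311 on the minus strand and chr5:76363778-76364027 on the minus strand.
Adm: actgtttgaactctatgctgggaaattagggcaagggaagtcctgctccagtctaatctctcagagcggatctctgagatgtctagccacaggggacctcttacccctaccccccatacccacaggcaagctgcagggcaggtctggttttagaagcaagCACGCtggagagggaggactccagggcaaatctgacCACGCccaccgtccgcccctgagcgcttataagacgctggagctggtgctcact
Apln: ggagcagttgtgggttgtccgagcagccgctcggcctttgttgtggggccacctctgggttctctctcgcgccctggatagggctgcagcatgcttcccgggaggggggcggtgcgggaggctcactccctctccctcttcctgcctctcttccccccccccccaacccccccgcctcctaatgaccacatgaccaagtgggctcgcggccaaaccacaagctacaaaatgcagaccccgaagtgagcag
Stc2: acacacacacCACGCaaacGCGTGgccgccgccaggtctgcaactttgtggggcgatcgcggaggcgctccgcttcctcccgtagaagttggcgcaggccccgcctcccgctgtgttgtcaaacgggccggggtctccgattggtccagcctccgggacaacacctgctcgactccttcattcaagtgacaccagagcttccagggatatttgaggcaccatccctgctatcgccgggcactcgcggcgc
Nmu: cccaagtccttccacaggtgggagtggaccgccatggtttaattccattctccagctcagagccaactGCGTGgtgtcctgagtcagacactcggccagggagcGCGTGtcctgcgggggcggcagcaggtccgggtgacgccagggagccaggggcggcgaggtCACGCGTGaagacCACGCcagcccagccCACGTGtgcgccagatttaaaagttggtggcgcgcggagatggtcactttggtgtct
The Adm window held 2 sites, both GCGTG on the opposite strand, the nearer ending 50 bases before the start. The Stc2 window also held 2 sites, near its far end. Nmu held 5 sites before the start and a further 1 after it. The Apln window and that of the first Vegfa start held 0, while that of a second Vegfa start held 2. Edn1 held 1, after the start, and Pgf held 1 at the first of its starts and 0 at the other. A match is a description of letters in this window and not a measured binding site.

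Double null and VHL null cells were first set against wild type cells, and most of the factors rose in both. In double null cells 6 of 10 genes were higher and 1 was lower, where 39.0% of all 11564 tested genes were called, 16.7% higher and 22.3% lower. The arrays of both groups did not overlap for 8 of the 10 and for 70.1% of all tested genes. The median log2 difference of the 10 was 1.45, that of all tested genes -0.05. In VHL null cells 8 of 10 were higher and 0 lower (limma; also 8 and 0 at an unadjusted p under 0.05), where 41.4% of all tested genes were called, 14.4% higher and 27.0% lower, and the medians were 1.12 and -0.10. Arrays did not overlap for 9 of the 10 and for 74.0% of all tested genes. These comparisons share the wild type arrays. Stc1 passed the filter only through arrays of the groups without VHL, and Nmu only through VHL null arrays. The counts of the 10 genes are conditional on that. Scaled to the spiked hybridization controls, 8581 of the genes called in double null cells were lower and 501 higher, and 7818 lower and 415 higher in VHL null cells, against 2579 lower and 1936 higher, and 3117 lower and 1670 higher, as deposited.

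**Figure D1:**
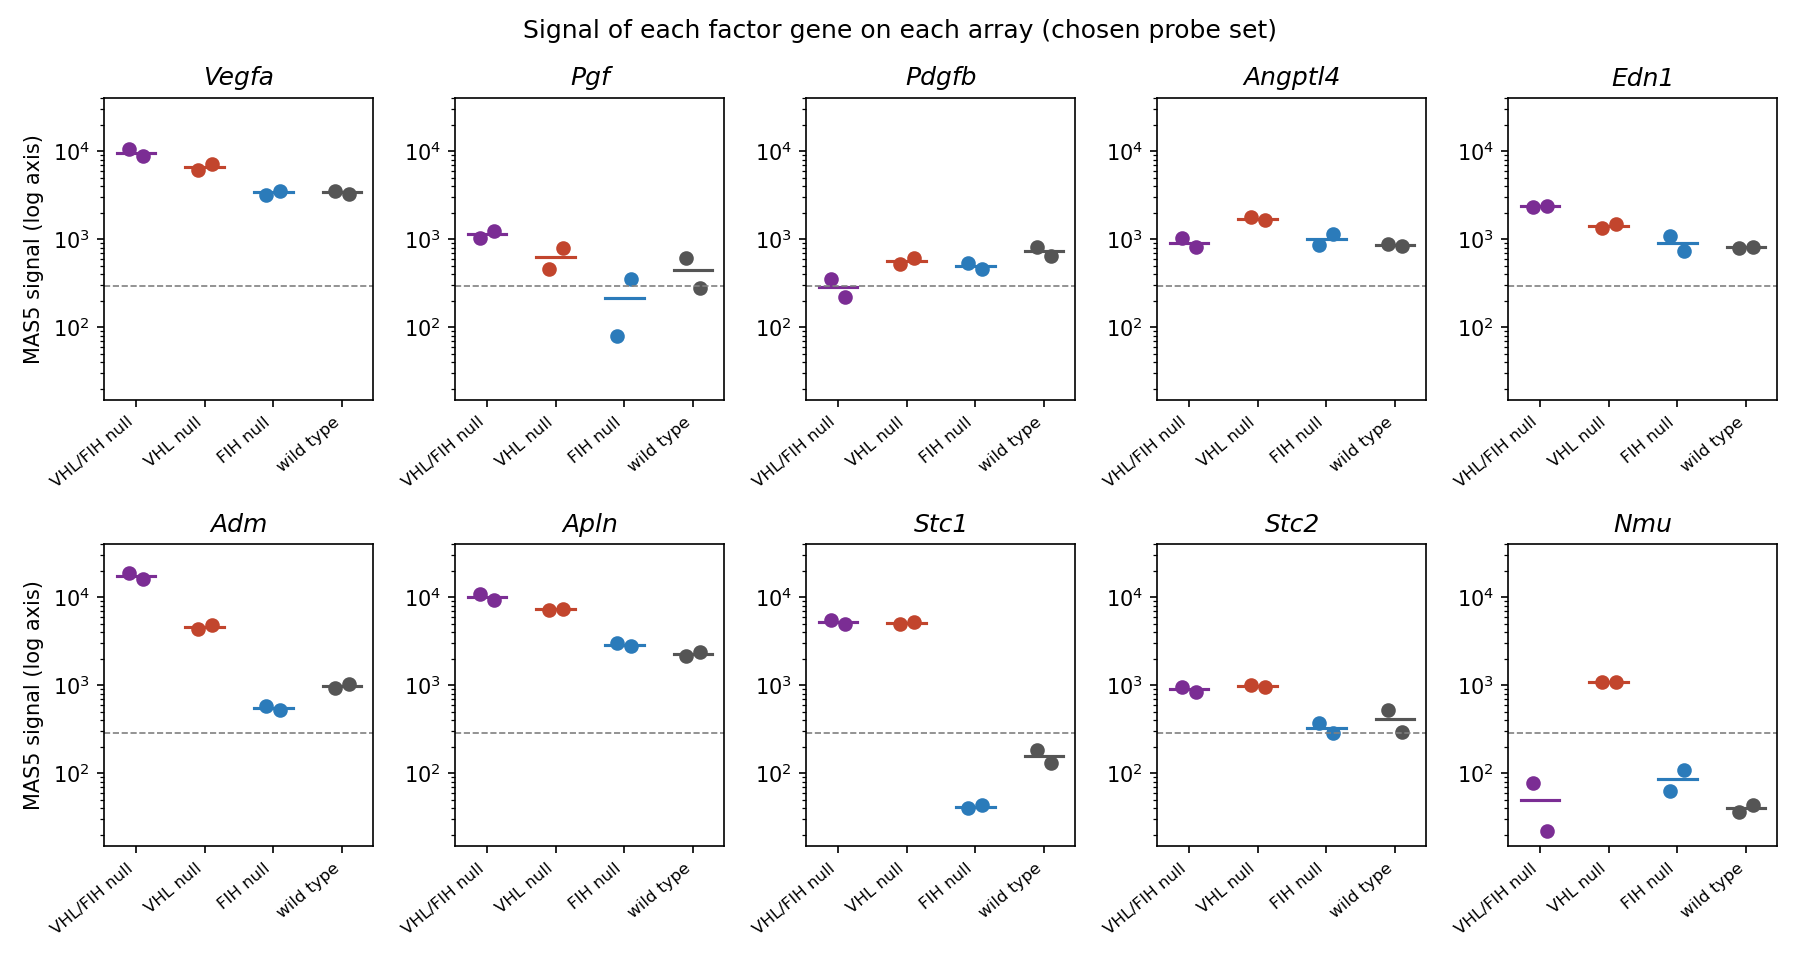
MAS5 signal (log axis) of the brightest tested probe set of each of the 10 genes on each of the 8 arrays, with a bar at the group mean and a dashed line at the cutoff of 291.1. Adm, Apln, Vegfa and Edn1 are highest in double null cells, Stc1 and Stc2 are high in both groups without VHL, and Nmu is above the cutoff in VHL null cells alone.

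Adm encodes adrenomedullin, a vasodilator peptide. On its brightest probe set (1447839_x_at) it read 18836 and 16327 in double null, 4348 and 4810 in VHL null, 578 and 521 in FIH null, and 933 and 1048 in wild type cells. No 2 groups overlapped, and the order was double null, VHL null, wild type, FIH null. The log2 difference from wild type was 4.13 in double null cells (SE 0.109, limma adjusted p = 4.09e-09), a ratio of mean signals of 17.7, and 2.19 in VHL null cells (SE 0.109, adjusted p = 4.37e-07). It was -0.83 in FIH null cells (adjusted p = 0.00136). The suffix of this probe set marks probes that may bind other transcripts. The other one (1416077_at) carries no such mark and read 16186 and 12788 in double null, 3318 and 3317 in VHL null, 264 and 366 in FIH null, and 796 and 765 in wild type cells, the same order of groups. Its differences from wild type were 4.18 in double null, 2.07 in VHL null and -1.28 in FIH null cells (adjusted p = 2.97e-08, 7.32e-06 and 7.33e-04).

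Vegfa encodes VEGF-A, the main growth factor of endothelial cells. Its brightest probe set (1420909_at) read 10414 and 8742 in double null, 6023 and 7120 in VHL null, 3201 and 3562 in FIH null, and 3526 and 3242 in wild type cells. Both groups without VHL lay above both groups with it, and the FIH null and wild type arrays overlapped. Against wild type the log2 difference of Vegfa was 1.49 for double null cells (SE 0.109, adjusted p = 3.52e-06) and 0.95 for VHL null cells (SE 0.109, adjusted p = 1.26e-04). In FIH null cells the difference was -0.0016, with a 95% interval from -0.24 to 0.24 (adjusted p = 0.996). The second probe set (1451959_a_at), whose probes match several transcripts of the gene, read 4713 and 4458 in double null, 3772 and 3498 in VHL null, 1659 and 1777 in FIH null, and 1351 and 1292 in wild type cells. Here the FIH null arrays did not overlap the wild type arrays, and the gene was higher in FIH null cells by 0.37 (adjusted p = 0.0464), against 1.78 in double null and 1.45 in VHL null cells.

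Apln encodes apelin, a peptide that acts on vessels and heart through the receptor encoded by Aplnr. Its signal was 10814 and 9314 in double null, 7100 and 7438 in VHL null, 3008 and 2778 in FIH null, and 2132 and 2414 in wild type cells. All 4 groups were apart. Double null cells lay above wild type by a log2 difference of 2.14 (SE 0.0949, adjusted p = 1.05e-07), and VHL null cells did so by 1.67 (SE 0.0949, adjusted p = 1.12e-06). FIH null cells differed by 0.35, which missed the threshold (adjusted p = 0.0743) but passed it with median centring (0.0166) and with adjustment over 1 probe set per gene (0.0486).

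Edn1 encodes the precursor of endothelin-1, a constrictor of vessels. It read 2344 and 2374 in double null, 1345 and 1474 in VHL null, 1086 and 732 in FIH null, and 794 and 822 in wild type cells. The FIH null arrays lay on either side of the wild type arrays, and the other groups were apart. The log2 difference from wild type was 1.53 for double null (SE 0.168, adjusted p = 6.94e-05) and 0.79 for VHL null (SE 0.168, adjusted p = 0.00472). The difference in FIH null cells was 0.14, with a 95% interval from -0.23 to 0.51.

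Stc1 and Stc2 encode the stanniocalcins, glycoprotein hormones first known from calcium control in fish. Stc1 read 5502 and 5034 in double null, 4940 and 5182 in VHL null, 40.4 and 43.5 in FIH null, and 185 and 132 in wild type cells. The groups without VHL overlapped each other and lay far above the others, which were below the cutoff. Against wild type Stc1 was at least 18.1-fold higher in double null and at least 17.4-fold higher in VHL null cells (adjusted p = 3.08e-08 and 6.13e-08). Stc1 passed the filter only through the arrays of these groups, where it is high, so its p-values are conditional on that. FIH null signals were lower than wild type signals (adjusted p = 5.87e-04), a call between levels below the cutoff that ended with only these groups in the fit (adjusted p = 0.219). A second Stc1 probe set (1421984_at) never exceeded the cutoff and was not tested.

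Stc2 read 959 and 847 in double null, 1020 and 948 in VHL null, 374 and 289 in FIH null, and 529 and 297 in wild type cells on its brightest probe set (1419503_at). Both groups without VHL were above both groups with it. Its log2 difference from wild type was 1.15 for double null (SE 0.26, adjusted p = 0.00624) and 1.27 for VHL null (SE 0.26, adjusted p = 0.00372). On another probe set (1449484_at) it was at least 2.99-fold higher in double null and at least 2.92-fold higher in VHL null cells, with FIH null and wild type signals between 105 and 172. That probe set passed the filter only through the arrays of the groups without VHL, where it is high. On 1445186_at the differences were 0.68 in double null and 0.46 in VHL null cells, and neither passed (adjusted p = 0.0524 and 0.17).

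**Figure D2:**
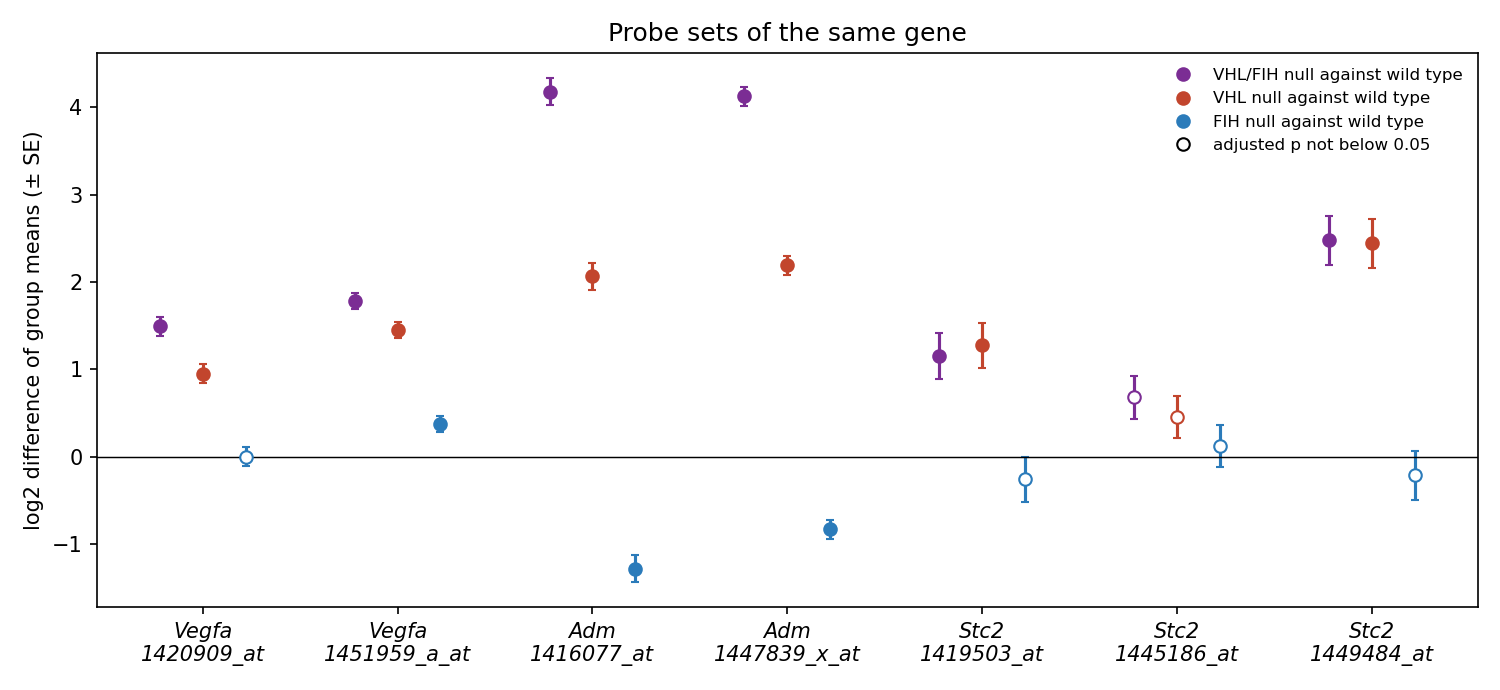
Log2 difference from wild type (± SE) on each tested probe set of Vegfa, Adm and Stc2, for double null (purple), VHL null (red) and FIH null cells (blue), with open points where the adjusted p was not below 0.05. Both Adm probe sets lie below 0 in FIH null cells, the Vegfa probe sets read -0.0016 and 0.37 there, and the 3 Stc2 probe sets range from 0.46 to 2.44 in VHL null cells. On 1449484_at Stc2 lies below the cutoff in FIH null and wild type cells, so its plotted sizes are not measured folds.

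Angptl4 and Nmu were high in VHL null cells, and neither was in double null cells. Angptl4 encodes a secreted inhibitor of lipoprotein lipase. It read 1017 and 805 in double null, 1791 and 1627 in VHL null, 866 and 1146 in FIH null, and 888 and 841 in wild type cells. The VHL null arrays stood above all others, and the remaining groups overlapped. Angptl4 was 0.97 higher than wild type on the log2 scale in VHL null cells (SE 0.169, adjusted p = 0.00151). In double null cells its difference was 0.07, with a 95% interval from -0.31 to 0.44 (adjusted p = 0.799), and scaling to hybridization controls turned it to -0.46 (adjusted p = 0.0314). The suffix of this probe set (1417130_s_at) marks probes shared by several transcripts. The second one, 1453410_at, stayed below the cutoff on all arrays and was not tested.

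Nmu encodes the precursor of neuromedin U, a peptide of gut and brain. It read 78.3 and 22.4 in double null, 1084 and 1095 in VHL null, 62.5 and 108.6 in FIH null, and 36.5 and 43.5 in wild type cells. The signal exceeded the cutoff on the VHL null arrays alone. Nmu was at least 3.74-fold higher in VHL null than in wild type cells (adjusted p = 3.84e-04). Nmu passed the filter only through the VHL null arrays where it is high, so its p-values are conditional on that. With no filter the adjusted p was 5.43e-04 for VHL null against wild type. No fit without a VHL null array tested this gene.

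Pdgfb and Pgf were not called higher in VHL null cells. Pdgfb, which encodes the B chain of platelet-derived growth factor, read 355 and 221 in double null, 519 and 614 in VHL null, 532 and 456 in FIH null, and 823 and 647 in wild type cells. The double null arrays were below all others. Pdgfb was at least 2.52-fold lower in double null than in wild type cells (log2 difference -1.33, SE 0.258, adjusted p = 0.00267). Its differences of -0.36 in VHL null and -0.55 in FIH null cells did not pass (adjusted p = 0.305 and 0.295), but did when scaled to hybridization controls (-0.74 and -0.81, adjusted p = 0.0208 and 0.0279). Its other probe set (1450413_at) exceeded the cutoff on 1 array and was not tested.

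Pgf encodes placental growth factor, a relative of VEGF-A that binds the receptor encoded by Flt1. It read 1029 and 1241 in double null, 452 and 795 in VHL null, 78.4 and 354 in FIH null, and 618 and 279 in wild type cells. The double null arrays stood above all others, and the remaining groups overlapped or spread widely. The difference from wild type was 1.41 in double null cells (SE 0.562, adjusted p = 0.0775) and 0.51 in VHL null cells (95% interval from -0.73 to 1.76, adjusted p = 0.515). In double null cells it passed with only the compared groups in the fit (adjusted p = 0.0141) and without FIH null replicate 1 (0.015) or 2 (0.0173). Against FIH null cells Pgf was at least 3.9-fold higher in double null cells (adjusted p = 0.00412).

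**Figure D3:**
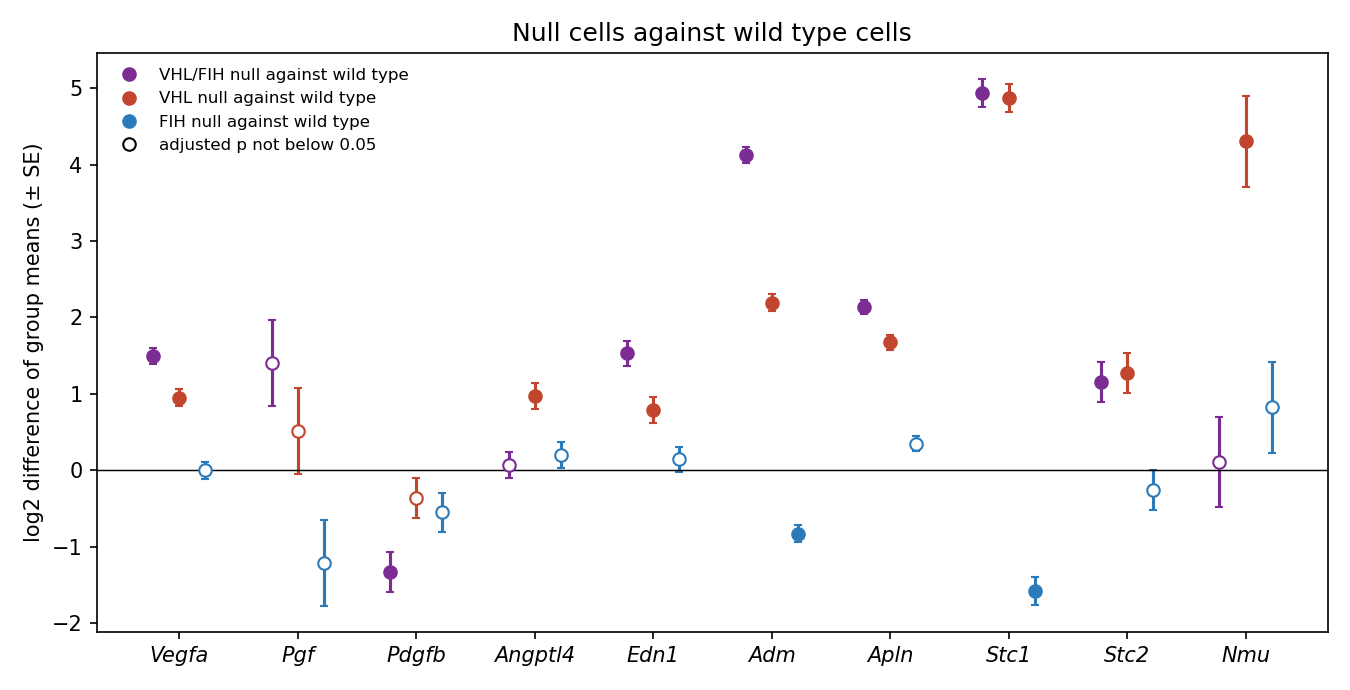
Log2 difference from wild type (± SE of the limma fit) for each of the 10 genes in double null (purple), VHL null (red) and FIH null cells (blue), with open points where the adjusted p was not below 0.05. Stc1 lies at 4.93 in double null and 4.88 in VHL null cells, Nmu is at 0.11 for double null and 4.31 for VHL null cells, and Pdgfb is at -1.33 in double null cells. Means of Stc1 and Nmu lie below the cutoff in wild type cells, and those of Nmu and Pdgfb in double null cells. In FIH null cells the means of Pgf, Stc1 and Nmu lie below it. Sizes plotted from these means are not measured folds.

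In FIH null cells 0 of 10 genes were higher than in wild type and 2 were lower, Adm and Stc1, where 5.28% of all tested genes were called, 1.39% higher and 3.89% lower. Arrays did not overlap for 5 of the 10 and for 55.5% of all tested genes. At an unadjusted p under 0.05, 1 was higher and 2 were lower. The median difference of the 10 was -0.13, against -0.0025 for all tested genes. Adm was above the cutoff in all groups on its brightest probe set, while Stc1 was not in either of these.

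Loss of FIH on top of VHL loss was examined by setting double null against VHL null cells. Of the 10 genes 4 were higher, Adm, Edn1, Vegfa and Apln, and 3 were lower, Nmu, Pdgfb and Angptl4, where 35.0% of all tested genes were called, 20.7% higher and 14.3% lower. Arrays did not overlap for 8 of the 10 and for 67.4% of all tested genes. Adm was 1.94 higher (SE 0.109, adjusted p = 8.26e-07) and Edn1 0.74 higher (SE 0.168, adjusted p = 0.00778). Vegfa was 0.54 higher on its brightest probe set (adjusted p = 0.00394) and 0.33 on the other (adjusted p = 0.0185), and Apln was 0.46 higher (adjusted p = 0.00427). Nmu was at least 3.74-fold lower (adjusted p = 4.74e-04), Pdgfb at least 1.95-fold lower (log2 difference -0.97, adjusted p = 0.0169) and Angptl4 lower by a log2 difference of -0.90 (adjusted p = 0.0026). Stc1 differed by 0.06, with a 95% interval from -0.35 to 0.46, and Stc2 by -0.12, with an interval from -0.70 to 0.45. The Edn1 call ended without VHL null replicate 1 (adjusted p = 0.0571), and the Pdgfb call without double null replicate 2 (0.0996) or VHL null replicate 2 (0.0992).

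Loss of VHL in cells without FIH, double null against FIH null, gave 7 genes higher and 1 lower, where 43.5% of all tested genes were called, 19.7% higher and 23.9% lower. Arrays did not overlap for 8 of the 10 and for 72.8% of all tested genes. Adm was 4.96 higher on its brightest probe set (SE 0.109, adjusted p = 1.53e-09) and 5.46 on the other (adjusted p = 4.58e-09), ratios of mean signals of 32.0 and 46.0. The ratio of 46.0 divides by an FIH null mean of 315, near the cutoff, with only 1 FIH null array above it. Stc1 was at least 18.1-fold higher, Apln 1.79 higher on the log2 scale, Vegfa 1.49, Stc2 1.41 and Edn1 1.39 (largest adjusted p of these 0.00167, for Stc2). Pdgfb was at least 1.70-fold lower (log2 difference -0.78, adjusted p = 0.0358). The call ended with no filter (adjusted p = 0.0761), without a variance trend (0.0542), with only the compared groups (0.0758) and with centring per chromosome (0.0597). It also ended without FIH null replicate 1 or 2 (differences of -0.67 and -0.89) and without double null replicate 2 (-0.46). Angptl4 and Nmu differed by -0.14 (95% interval from -0.51 to 0.24) and -0.72 (from -2.03 to 0.60). In the comparison with wild type that has FIH in both groups, both genes were higher without VHL.

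The effect of FIH loss was then compared between cells without VHL (double null minus VHL null) and cells with VHL (FIH null minus wild type), which share no array, and the difference of these differences was tested as an interaction. It passed for 5 of the 10 genes positive for Adm, Stc1 and Vegfa and negative for Nmu and Angptl4, where it passed for 19.1% of all tested genes, positive in 11.9% and negative in 7.19%. For Adm the effect was 1.94 without VHL and -0.83 with VHL, and the interaction was 2.77 (SE 0.154, adjusted p = 2.35e-06). The second Adm probe set gave 2.11 and -1.28 (interaction 3.39, adjusted p = 6.23e-06), with only 1 FIH null array above the cutoff. For Angptl4 the effects were -0.90 without and 0.20 with VHL (interaction -1.11, SE 0.238, adjusted p = 0.0111). For Nmu they were -4.20 and 0.82 (interaction -5.02, SE 0.838, adjusted p = 0.00291), a log2 size that rests on signals below the cutoff in 3 groups and on a gene tested only through its VHL null arrays (adjusted p = 0.0042 with no filter). The Stc1 interaction (1.63, adjusted p = 0.00229) rests on FIH null and wild type signals below the cutoff. For Vegfa it was 0.54 (adjusted p = 0.0376) on the brightest probe set and -0.04 (95% interval from -0.32 to 0.25, adjusted p = 0.871) on the other, and the call ended in 12 of 22 alternatives, 6 of them fits that left out an array. For Apln the effects were 0.46 without and 0.35 with VHL (interaction 0.12, 95% interval from -0.18 to 0.41). Edn1 had 0.74 and 0.14 (interaction 0.60, adjusted p = 0.121).

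**Figure D4:**
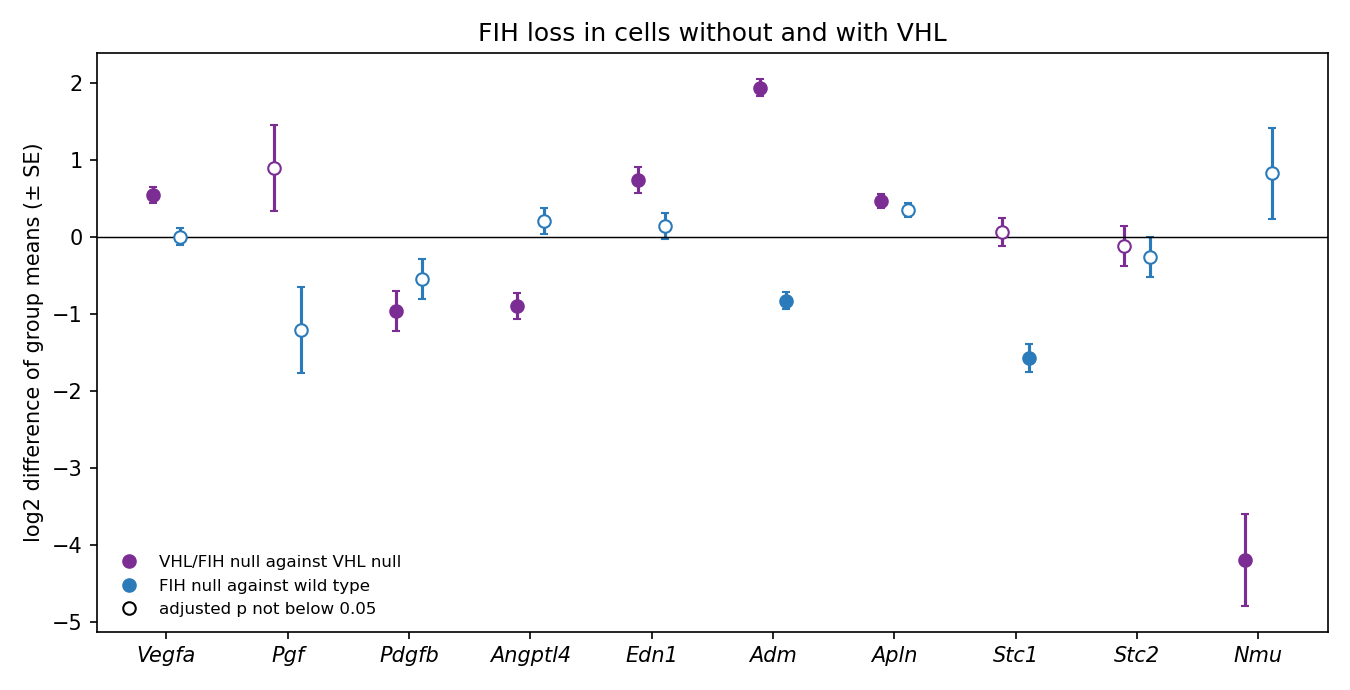
Log2 effect of FIH loss (± SE) on each gene in cells without VHL (purple, double null against VHL null) and in cells with VHL (blue, FIH null against wild type), with open points where the adjusted p was not below 0.05. For Adm the effects are 1.94 and -0.83, for Apln 0.46 and 0.35, and for Nmu -4.20 and 0.82. Means of Nmu and Pdgfb in double null cells, and of Pgf, Stc1 and Nmu in FIH null cells, lie below the cutoff. In wild type cells those of Stc1 and Nmu do so too. Sizes plotted from these means are not measured folds.

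Receptors and co-receptors of the factors went both ways. Of 17 listed genes 11 were tested, and 3 rose and 6 fell in double null, 4 rose and 4 fell in VHL null, and 0 rose and 2 fell in FIH null cells (in FIH null cells 2 rose and 3 fell at an unadjusted p under 0.05). Over all tested genes 39.0%, 41.4% and 5.28% were called in these comparisons. The 8 receptor calls in VHL null cells fell to 5 without VHL null replicate 2 and without either wild type array. Their median log2 differences were -0.54, -0.31 and -0.15, those of all tested genes -0.05, -0.10 and -0.0025. Ackr3, an atypical chemokine receptor that also takes up adrenomedullin, read 31541 and 31543 in double null, 18270 and 16619 in VHL null, 4636 and 4642 in FIH null, and 8965 and 9076 in wild type cells. Its groups followed the order of Adm. Its log2 differences from wild type were 1.80, 0.95 and -0.96 (adjusted p = 2.06e-08, 3.24e-06 and 1.06e-05). Ramp3, a partner of the adrenomedullin receptor, differed from wild type by -1.13 in double null, 0.82 in VHL null and -1.29 in FIH null cells (adjusted p = 0.00155, 0.00982 and 0.00432), higher in VHL null and lower in the others. Nrp1, a VEGF co-receptor, rose by 0.78 in double null and 0.74 in VHL null cells (adjusted p = 3.14e-05 and 6.65e-05). In VHL null cells the related co-receptor Nrp2 fell by 1.61 and Flt4, the receptor of VEGF-C, fell by 1.38 (adjusted p = 1.03e-05 and 5.74e-05). Their differences in double null cells were -0.65 and -0.54 (limma adjusted p = 0.00275 and 0.0121). Pdgfra, a receptor of platelet-derived growth factors, read 160 and 190 in double null, 1616 and 2024 in VHL null, 899 and 708 in FIH null, and 777 and 1243 in wild type cells. It was at least 3.47-fold lower in double null than in wild type cells (adjusted p = 3.41e-05), and Pdgfrb, which binds the B chain, differed by -0.86 (adjusted p = 1.87e-04). Pdgfra differed by 0.87 and Pdgfrb by -0.31 in VHL null cells (limma adjusted p = 0.0170 and 0.0485).

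**Figure D5:**
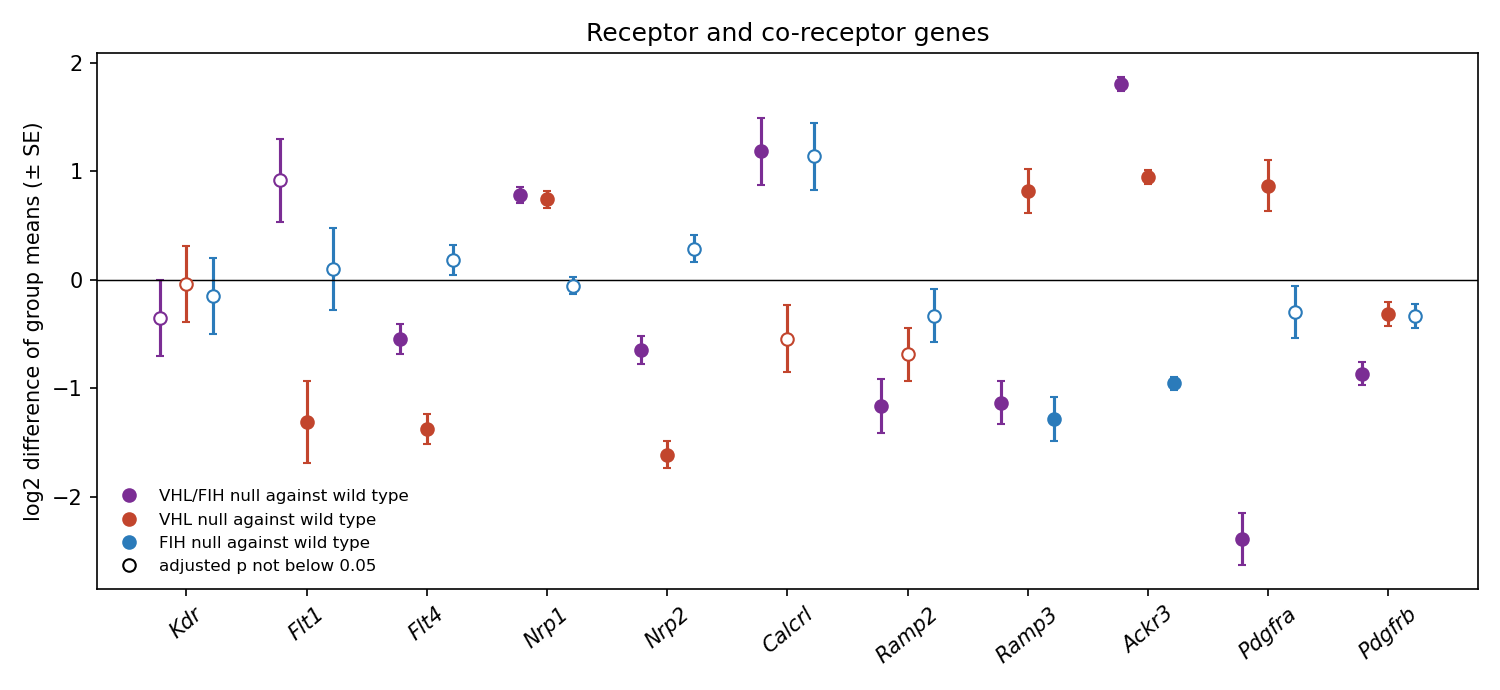
Log2 difference from wild type (± SE) of the 11 tested receptor and co-receptor genes in double null (purple), VHL null (red) and FIH null cells (blue), with open points where the adjusted p was not below 0.05. Ackr3 is at 1.80, 0.95 and -0.96, and Pdgfra is at -2.39 in double null cells. Pdgfra has a mean below the cutoff in double null, Flt1 in VHL null, and Kdr in double null and FIH null cells. Calcrl has a mean below it in VHL null and wild type cells. Sizes plotted from these means are not measured folds.

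Relatives of the factors from the same families were listed too, 19 genes with 11 tested. Of these 6 rose and 3 fell in double null, 6 rose and 3 fell in VHL null, and in FIH null cells 0 rose and 0 fell (limma; 2 rose and 0 fell at an unadjusted p under 0.05), where 39.0%, 41.4% and 5.28% of all tested genes were called. The median log2 differences of the relatives were 0.50, 0.25 and 0.18. Adm2, which encodes a peptide related to adrenomedullin, read 1578 and 1494 in double null, 1401 and 1337 in VHL null, 534 and 364 in FIH null, and 456 and 328 in wild type cells. It thus was high in both groups without VHL, by 1.95 and 1.78 over wild type (adjusted p = 6.35e-05 and 1.56e-04). Edn2, which encodes a second endothelin, was at least 3.45-fold higher in double null than in wild type cells (adjusted p = 4.61e-05). It read 306 and 285 in VHL null cells. The signal exceeded the cutoff only on the 2 double null arrays and 1 VHL null array, so this p-value is conditional on the arrays where Edn2 is high. Of the platelet-derived growth factors Pdgfc rose by 0.71 in double null and 1.14 in VHL null cells (adjusted p = 1.77e-04 and 1.10e-05). Pdgfa rose by 0.83 in double null and 0.44 in VHL null cells (adjusted p = 1.95e-04 and 0.0097). Pdgfd fell by 2.36 in VHL null cells and Vegfb, a relative of VEGF-A, fell by 0.93 (adjusted p = 6.96e-07 and 1.98e-05). The differences of Pdgfd and Vegfb in double null cells were -0.72 and -0.61 (limma adjusted p = 0.00138 and 2.20e-04).

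Enzymes that cut or trim the precursors were tested for 7 of 9 genes. Their median log2 differences were 0.33 in double null, -0.29 in VHL null and 0.02 in FIH null cells, and 39.0%, 41.4% and 5.28% of all tested genes were called in these comparisons. In double null cells 3 rose (Ece1, the endothelin-converting enzyme, Pcsk7 and Pcsk6) and 0 fell, with 3 higher and 1 lower at an unadjusted p under 0.05. In VHL null cells 0 rose and 2 fell, Mme and Furin, with 0 and 4 at an unadjusted p. The Furin call ended with quantile normalization (adjusted p = 0.0882), with centring per chromosome (0.104), without VHL null replicate 1 (0.116) and without wild type replicate 2 (0.086), which left 1. In FIH null cells 0 rose and 2 fell, Mme and Pam, with 0 and 2 at an unadjusted p. The calls of Ece1, Pcsk7 and Pcsk6 ended without wild type replicate 1 (adjusted p = 0.0639, 0.0676 and 0.123), and scaling to hybridization controls turned Ece1 to -0.08 and Pcsk7 to -0.19. The Pcsk7 call ended in 3 and the Pcsk6 call in 6 of the 8 fits that left out an array. Mme, which encodes the peptidase neprilysin, differed from wild type by -1.07 in VHL null and -1.11 in FIH null cells (adjusted p = 9.72e-05 and 2.97e-04). Pam, whose enzyme adds the terminal amide that adrenomedullin and neuromedin U need, read 3619 and 3034 in double null, 2347 and 2662 in VHL null, 45.7 and 433 in FIH null, and 2432 and 2225 in wild type cells. The FIH null arrays were below all others and differed widely from each other. The Pam call in FIH null cells (adjusted p = 0.00685) ended without a variance trend (0.104), and its difference was -2.38 without FIH null replicate 1 and -5.25 without replicate 2.

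Other secreted regulators of vessel growth numbered 24, with 17 tested. In double null cells 5 rose and 7 fell, in VHL null cells 4 and 6, and in FIH null cells 1 and 6, where 39.0%, 41.4% and 5.28% of all tested genes were called. Their median log2 differences were -0.42, -0.03 and -0.13. Hbegf, a ligand of the epidermal growth factor receptor, read 21181 and 20369 in double null, 37944 and 37586 in VHL null, 7659 and 7907 in FIH null, and 12244 and 12760 in wild type cells. Its level was thus highest in VHL null cells, as for Angptl4. The matrix protein gene Thbs1 rose by 1.10 and Serpinf1, which encodes the vessel inhibitor PEDF, by 1.46 with both genes deleted (adjusted p = 1.15e-06 and 2.46e-06). Their differences in VHL null cells were 0.55 and -0.44 (limma adjusted p = 2.04e-04 and 0.00692). Cxcl12, a chemokine gene, fell by 1.09 in double null and 0.67 in VHL null cells (adjusted p = 2.94e-07 and 1.70e-05). Tgfb3 differed by -1.05 in double null and -1.11 in VHL null cells (limma adjusted p = 6.24e-06 and 7.60e-06). Sema3a, a guidance factor gene, differed by 0.73 in VHL null and -0.72 in FIH null cells, and Sema3c and Thbs2 by -1.74 and -1.48 in FIH null cells (largest adjusted p of these 2.30e-04). Sema3c and Thbs2 were lower in double null cells too (-0.98 and -1.24, limma adjusted p = 1.42e-04 and 1.33e-04). Thbs2 was higher in VHL null cells (1.09, adjusted p = 3.84e-04).

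Of the markers of other cell types, Krt19 and Fabp4 were higher and Krt18 was lower in double null cells, with 0 of 3 tested macrophage and 0 of 2 tested endothelial markers called there (limma; at an unadjusted p under 0.05, 2 macrophage and 0 endothelial markers). Of the epithelial list 4 and of the adipocyte list 3 were tested. Over all tested genes 39.0% were called in this comparison, 16.7% higher and 22.3% lower. In lists this short, 0 calls do not show that nothing changed. The summed signal of 8 epithelial markers ran from 40506 to 47858 in double null, from 16346 to 16598 in VHL null, from 11735 to 12143 in FIH null and from 10733 to 10913 in wild type cells, most of it from the keratin gene Krt19 (log2 difference 2.45 in double null cells, adjusted p = 1.10e-08). Krt18 of the same list went the other way, at 383 and 298 in double null, 631 and 684 in VHL null, 1267 and 1360 in FIH null, and 1356 and 1393 in wild type cells (-1.97 in double null, adjusted p = 8.97e-06), while Cdh1, Krt14 and Cldn4 stayed below the cutoff throughout. The 6 adipocyte markers with a probe set summed to between 2481 and 2603 in double null, 729 and 1091 in VHL null, 666 and 1159 in FIH null, and 1173 and 1368 in wild type cells, with Fabp4 at 2153 and 1669 in double null cells and Adipoq and Lep below the cutoff on every array. The 10 macrophage markers summed to between 3424 and 3538 in double null, 4268 and 4447 in VHL null, 3510 and 3609 in FIH null, and 3267 and 3680 in wild type cells, and 7 of them were never above the cutoff. The part of these differences in the values of the secreted factors was not tested.

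Among 1973 other genes whose group means spanned at least 1 on the log2 scale, those closest to each factor over the 8 arrays were ranked by Pearson's r, as a description of arrays that fall into 4 groups. Closest to Adm were Vwa1 (r = 0.998) and Ghr (0.996), to Apln Grhpr (0.999) and Gbe1 (0.996), to Vegfa Rassf1 (0.993) and Klf4 (0.992), and to Edn1 Dlx2 (0.989) and Hey2 (0.987). Stc1 was nearest to Plekha2 (0.998) and Ndrg1 (0.997), and Stc2 to Shc4 (0.989) and 1500011B03Rik (0.979). Angptl4 and Nmu shared the nearest gene, Arap2 (r = 0.907 and 0.941), followed by Flacc1 (0.896) and Tgfbr3 (0.929). Pdgfb was nearest to Fbxo2 (0.969) and Fbxl7 (0.961), and Pgf to Sh3gl3 (0.949) and Lrrc8e (0.939).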

How the data were processed

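RNA of 8 MEF samples was measured on 1-colour arrays. The authors deposited a MAS5 signal for each probe set, a linear intensity (the submitters' processing notes name MAS5), and it was used as scaled by them. Probe sets were named by the platform annotation, with symbols updated through Entrez numbers. Group means of log2(signal + 16) were fitted over all 24523 tested probe sets by limma 3.58.1 (R 4.3.3), using lmFit and eBayes with a trend of the variance on signal (prior degrees of freedom 6.42, residual 4). Tests were two-sided, adjusted by the Benjamini-Hochberg method over all tested probe sets of a comparison, threshold 0.05. The script was tested on simulated data. The number of arrays limits the precision.

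The genes and lists were chosen with earlier results of these data known. Of each list, up to 4 genes with the smallest adjusted p per comparison with wild type were named, or all where 5 or fewer passed. Equal replicate numbers did not mark pairs: replicate differences correlated between groups with r from -0.0157 to 0.0318. Alternatives were other pseudocounts, filters, scalings, probe set rules, fits and left-out arrays, and centring per chromosome, added after seeing the data.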

Additional observations from a re-analysis of the deposited data

Results flagged for a closer look

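The effect of FIH loss differed between cells without and with VHL, by the interaction test of limma, for 5 of the 10 genes. The same test passed for 19.1% of all tested genes, positive in 11.9% and negative in 7.19%. Genotype and line of origin cannot be told apart in it. The interaction on the log2 scale was 2.77 for Adm, 1.63 for Stc1, 0.54 for Vegfa, -1.11 for Angptl4 and -5.02 for Nmu. Adm had the same direction on both of its probe sets, Vegfa had it on 1 of 2 and lost the call in 12 of 22 alternatives, and the values of Stc1 and Nmu rest on signals below the cutoff. Groups of 2 arrays were too small to look for a single array far from the others.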

How the results depend on the processing

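The replicate block left every call of the 10 genes as it was (60 of 60 values), with 5 interaction calls in that fit too. Pseudocounts of 1 and 64 also changed none of 60. The filter at the 75th percentile (2454) kept 4 of the 10 genes, and of these passed 4 against wild type in double null, 4 in VHL null, 3 in double null against VHL null, 4 against FIH null and 3 by interaction. Adm and Stc1 exceeded 2454 only on arrays of the groups without VHL, where they are high. The counts under this filter are conditional on that. With only the compared groups in the fit 1 gene passed in FIH null cells. Asking for 2-fold left 5 genes for VHL null and 1 for FIH null (both set against wild type), and 2 for double null against VHL null. Of all 11564 tested genes 618, 205 and 684 were left in the same comparisons. Leaving out 1 array gave 7 to 8 genes for double null against wild type, 7 to 8 for VHL null, 2 to 3 for FIH null, 5 to 7 for double null against VHL null, 7 to 8 against FIH null and 3 to 5 for the interaction, Nmu being untested without a VHL null array.

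Scaled to hybridization controls, the median log2 difference of all probe sets from wild type was -0.58 (double null), -0.45 (VHL null) and -0.26 (FIH null), against -0.059, -0.073 and -0.0010 as deposited. Pdgfb then passed in VHL null (-0.74, adjusted p = 0.0208) and FIH null cells (-0.81, 0.0279). This scaling reversed Angptl4 (-0.46) and Nmu (-0.42), Ece1 (-0.076) and Pcsk7 (-0.19) in double null cells, Angptl4 (-0.056), Edn1 (-0.12) and Vhl (-0.18) in FIH null cells, and Stc1 in double null against VHL null cells (-0.088). The Vegfa difference in FIH null cells was 0.016 with quantile normalization, 0.091 with median centring, 0.037 with centring per chromosome (chosen after seeing the data) and 0.19 with probe sets averaged. The Stc2 interaction was -0.031 with quantile normalization, and Stc2 in double null against VHL null cells was 0.045 with probe sets averaged. The cause was not tested.

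Leaving out 1 array, ranges that crossed 0 were, against wild type, -0.10 to 0.23 for Angptl4 and -0.54 to 0.75 for Nmu in double null, -0.040 to 1.06 for Pgf in VHL null, and -0.078 to 0.075 for Vegfa, -0.14 to 0.42 for Edn1 and -0.66 to 0.14 for Stc2 in FIH null cells. They were -0.0072 to 0.12 for Stc1 in double null against VHL null, -0.33 to 0.063 for Angptl4 against FIH null, and -0.26 to 0.54 for the Stc2 interaction.

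Over all tested genes, FIH null against wild type gave 611 calls, 161 higher and 450 lower, against 969 (625 and 344) with median centring, 4527 (60 and 4467) with hybridization scaling 306 without a variance trend and 294 to 749 without 1 array. Median centring gave 2396 higher and 1918 lower in double null, and 2248 and 2306 in VHL null cells. The interaction gave 2204 calls, 1272 without a variance trend and 1334 to 2075 without 1 array. The Vegfa interaction missed the threshold with no filter (0.0639), quantile normalization (0.0522), median centring (0.0647), no variance trend (0.13) and probe sets averaged (0.166). Signals below the cutoff limit the folds of Stc1 and Nmu, those of Pdgfb in double null cells and those of Pgf in FIH null cells.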
